A study of Homo sapiens with 4 samples.

Results

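The genes of the Wnt pathway that sit at or next to the cell surface were followed in 2 cell lines of atypical teratoid/rhabdoid tumor (AT/RT), a malignant brain tumor of early childhood. All gene symbols of the WNT, FZD, DKK, and SFRP families were taken by their name pattern and joined with *LRP5*, *LRP6*, *AXIN1*, *AXIN2*, *LEF1*, *TCF7*, *TCF7L1*, *TCF7L2*, *CTNNB1*, *RNF43*, and *ZNRF3*. This gave 48 of the 18449 symbols in the count table: 19 ligands, 10 receptors, 2 co-receptors, 8 antagonists, 2 ubiquitin ligases of receptor turnover, 2 scaffold genes, 1 effector, and 4 transcription factors. The rule uses names and no measured value. Both lines, BT-16 and CHLA-266, carry the subtype name AT/RT-MYC, and the comparison asks which genes differ in cells that went through chemotherapy. Untreated cells of each line were compared with cells that had received 1 µM doxorubicin, 5 µM etoposide, and 1 µM vincristine one after another, each on 1 of 3 consecutive days with a change of medium in between. Most cells died, and the treated libraries come from resistant cells that grew again weeks later, so they do not sample the acute response. A lasting effect of the drugs and a difference of regrown survivors cannot be told apart. There was 1 bulk RNA library per line and condition, 4 in all, so the 2 libraries of a condition are different cell lines and not repeat cultures of one. Doxorubicin and etoposide block topoisomerase II, and vincristine blocks microtubule assembly.

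Wnt ligands are secreted lipid-modified glycoproteins that bind Frizzled receptors (FZD) together with the co-receptors LRP5 and LRP6. Binding keeps β-catenin, the product of *CTNNB1*, from being broken down by a complex built on AXIN, and β-catenin then acts with TCF and LEF proteins on target genes. Secreted frizzled-related proteins (SFRP) bind the ligands, most Dickkopf proteins (DKK) bind the co-receptors, and the ubiquitin ligases RNF43 and ZNRF3 remove Frizzled from the surface. The pathway is known for its part in brain patterning and in medulloblastoma, another brain tumor of childhood.

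The libraries held 49849257 to 75087193 counts, and the treated ones were the shallower in both lines. Counts in the treated libraries were spread over more genes: 209 and 294 of 381 olfactory receptor genes, which most cells outside the nose do not use, had a count after treatment, compared with 90 and 121 before it. The 95th percentile of the olfactory receptor genes was 0.0595 and 0.0618 CPM (counts scaled to the size of the library) per kb of exon in the untreated libraries of BT-16 and CHLA-266, and 0.455 and 0.409 after treatment. This percentile is given below as the olfactory level, since it moved with the condition, and its part in the rise of Wnt genes at low counts was not tested. The treated cells are described as growing again, yet all 10 proliferation genes of a list fell. Their summed level was 4300 to 4350 CPM before and 128 to 141 CPM after treatment. Their part in the changes described here was not tested either. The rhabdoid marker *VIM* was abundant in all libraries with 73439 to 120804 counts. Another, *ACTA2*, rose from 886 to 1382 (BT-16) and from 607 to 1262 counts (CHLA-266) (adjusted *p* = 0.00812, edgeR). *MUC1* went from 2299 to 4613 (BT-16) and from 763 to 1497 counts (CHLA-266). Its adjusted *p* was 0.0899, and 7.27e-07 with the cell line in the model (edgeR). *SMARCB1*, the gene that most AT/RT have lost, had 827 to 1394 counts, and counts per symbol do not show which exons they came from. Bulk RNA cannot tell fewer cells that use a gene from less RNA of that gene per cell.

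Of the 48 genes, 10 rose and 8 fell after treatment (edgeR quasi-likelihood test, adjusted *p* under 0.05), and 30 did not pass the test. Among all 18066 genes tested, 16.1% were called higher and 19.1% lower, so the shares called were close to those of all genes. By role, 5 of 8 antagonists rose and none fell, 4 of 19 ligands rose and 2 fell, 1 of 10 receptors rose and 2 fell, and both co-receptors fell. A difference between roles was not tested, and the roles differed in level: 7 of the 8 antagonists had under 100 counts over both untreated libraries, and neither co-receptor did. Taken over the 48 genes, the log2 fold change had a median of 0.70, compared with 0.24 over all genes. That median of all genes was 0.46 with library totals and 0.59 with upper-quartile scaling, so fold changes are relative to the TMM scaling. With upper-quartile scaling the calls were 13 higher and 6 lower, which is 68.4% higher instead of 55.6%. In 24 genes both treated libraries were above both untreated ones, which held for 40.2% of all genes, and in 8 genes both were below, which held for 32.3%. The adjusted *p* values come from the fit across all genes, since an exact permutation test of 2 against 2 libraries cannot go below 0.333. When the cell line was added to the model as a block, 14 genes were called higher and 9 lower. Without the treated BT-16 library, 6 were called higher and 8 lower.

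As in all genes, the calls divided by how much a gene was used before treatment. Of the 3454 genes called lower among all tested, 3453 had 100 or more counts over both untreated libraries. Of the 2910 called higher, 1665 had under 100. Of the 23 Wnt genes with under 100 counts, 8 rose and none fell, and 25.9% of all such genes were called higher. Their median log2 fold change was 2.91, compared with 3.25 over all genes with so few counts, and only 1 of the 23, *DKK4*, was above the olfactory level in both treated libraries. Of the 25 genes with 100 or more counts, 8 fell and 2 rose, *WNT9A* and *DKK1*, and 29.7% of all such genes were called lower. Their median was 0.02, compared with -0.25 over all genes with so many counts. The limit of 100 counts was set after the values were seen.

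**Figure D1:**
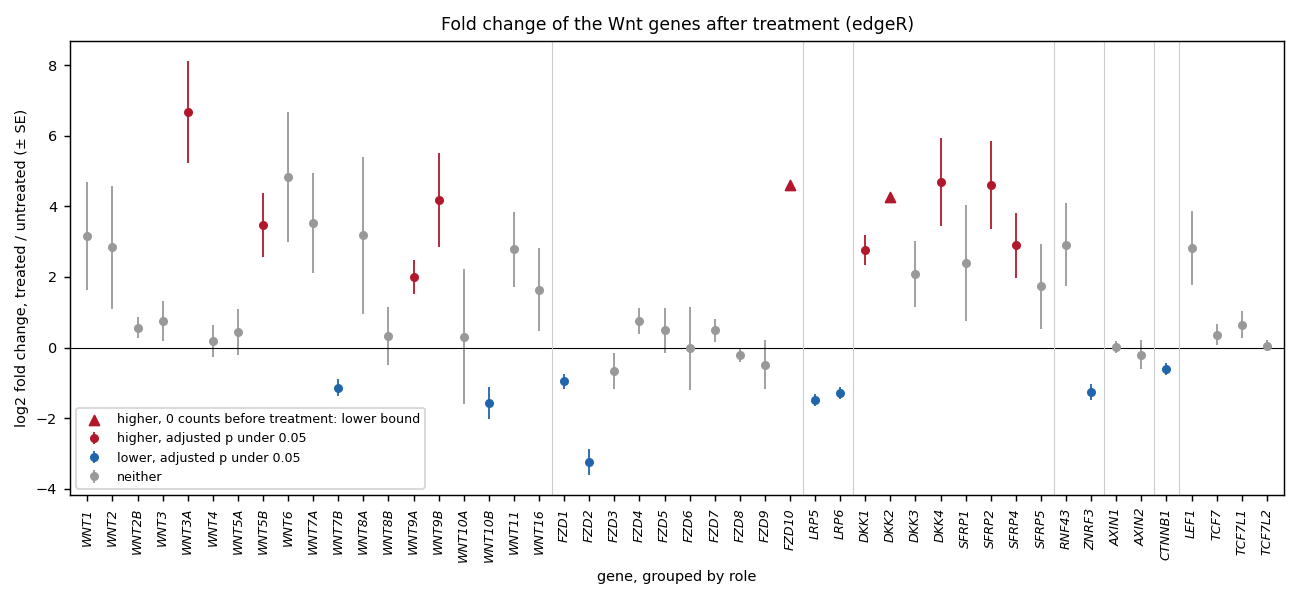
Log2 fold change of treated against untreated libraries for the 48 Wnt genes, grouped by role along the x axis, with bars for the standard error of the edgeR fit over 2 libraries per condition. Red points rose and blue points fell (adjusted *p* under 0.05), grey points did not pass the test, and the 2 triangles are lower bounds for genes with no count before treatment. Drawn in red are 5 of the 8 antagonists, 4 of the 19 ligands, and 1 of the 10 receptors. *DKK2* and *FZD10* are the triangles, and both co-receptors are blue.

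Both co-receptors fell by similar amounts in both lines. LRP5 and LRP6 are single-pass receptors that join Frizzled in the signaling complex. *LRP6* (ENSG00000070018; hg38 chr12:12116025-12267044, minus strand) went from 57503 to 18784 (BT-16) and from 49335 to 18093 counts (CHLA-266). *LRP5* (ENSG00000162337; chr11:68312591-68449275, plus strand) went from 9777 to 2861 (BT-16) and from 7165 to 2205 counts (CHLA-266). In both genes the treated libraries lay well below the untreated ones. The log2 fold change was -1.28 ± 0.16 (SE, n = 2 libraries per condition) for *LRP6*, with an adjusted *p* of 0.000737 in edgeR, and -1.49 ± 0.18 for *LRP5*, with 0.000517. *LRP6* was the most abundant of the 48 genes in untreated cells of both lines, at 80.4 and 77.3 CPM per kb, and stood at 31.3 and 33.6 after treatment. Each call held when any 1 of the 4 libraries was left out.

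Promoter sequences are shown for 4 genes that changed and were well above the olfactory level, so that the 2 that rose can be set beside the 2 that fell. Each is the 250 bases before the RefSeq start of the gene in GRCh38.p14, written 5′ to 3′ on the strand of the gene. The windows are chr10:52314031-52314280 (plus) for *DKK1*, chr1:227947933-227948182 (minus) for *WNT9A*, chr11:68312341-68312590 (plus) for *LRP5*, and chr7:91264183-91264432 (plus) for *FZD1*. Capitals mark the TCF/LEF core CTTTGA on either strand, TCAAAG when read on the other one, and the TATA box TATAAA.
DKK1: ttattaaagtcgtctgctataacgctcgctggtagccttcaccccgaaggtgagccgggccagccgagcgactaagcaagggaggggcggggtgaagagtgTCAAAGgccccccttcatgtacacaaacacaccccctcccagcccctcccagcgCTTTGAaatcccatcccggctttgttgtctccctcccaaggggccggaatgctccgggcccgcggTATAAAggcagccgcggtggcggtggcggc
WNT9A: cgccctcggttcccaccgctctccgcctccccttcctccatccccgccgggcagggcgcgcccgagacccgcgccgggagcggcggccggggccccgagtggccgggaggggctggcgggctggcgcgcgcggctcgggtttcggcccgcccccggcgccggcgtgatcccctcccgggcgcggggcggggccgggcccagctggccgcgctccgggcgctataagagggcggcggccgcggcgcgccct
LRP5: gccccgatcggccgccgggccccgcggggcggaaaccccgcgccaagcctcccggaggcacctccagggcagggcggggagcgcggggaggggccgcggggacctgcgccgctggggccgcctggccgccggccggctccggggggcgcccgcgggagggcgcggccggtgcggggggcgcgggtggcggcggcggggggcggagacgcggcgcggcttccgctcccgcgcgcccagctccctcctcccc
FZD1: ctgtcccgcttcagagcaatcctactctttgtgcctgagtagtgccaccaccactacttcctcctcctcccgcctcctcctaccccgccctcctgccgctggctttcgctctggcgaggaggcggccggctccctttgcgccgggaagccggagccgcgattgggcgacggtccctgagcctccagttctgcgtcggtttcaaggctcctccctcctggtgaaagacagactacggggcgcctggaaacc
The *DKK1* window held the TCF/LEF core once on each strand and a TATA box, and none of the other 3 windows held either motif. Across the 40 RefSeq promoters of the 33 members that could be matched, only this *DKK1* promoter held CTTTGA on either strand (2.5%), compared with 11.2% of 35116 promoters of the same length. TATAAA on either strand stood in 10% of the members' promoters and 10.7% of all, and the GC box GGGCGG in 75% and 42.6%. GC content was 62.8% in the *DKK1* window, 65.2% in *FZD1*, 84.4% in *WNT9A*, and 87.2% in *LRP5*. A match of letters is a description of the window and not a binding site.

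Among the 10 Frizzled receptors, *FZD1* and *FZD2* fell, *FZD10* rose, and 7 did not pass the test. *FZD2* had the largest fall of the 48 genes in this fit, from 715 to 60 (BT-16) and from 592 to 56 counts (CHLA-266). The log2 fold change was -3.24 ± 0.36 (adjusted *p* = 0.000373, edgeR), and each of the 4 fits with 1 library left out gave a value between -3.29 and -3.18. After treatment its level of 0.275 and 0.285 CPM per kb was under the olfactory level of both libraries, whereas before treatment it stood at 2.74 and 2.54. *FZD1*, on chr7:91264433-91271326, went from 11378 to 5628 (BT-16) and from 15160 to 5926 counts (CHLA-266). The 2 treated libraries were alike and below both untreated ones, with a log2 fold change of -0.96 ± 0.22 (adjusted *p* = 0.0101, edgeR). Without the untreated CHLA-266 library the adjusted *p* was 0.0623 and the log2 fold change -0.64.

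*FZD8* was the most abundant receptor in every library, with 13417 and 9107 counts (BT-16) and 13465 and 10237 counts (CHLA-266) before and after treatment. In BT-16 it made up 41.3% of the summed receptor level per kb before and 46.9% after treatment, and in CHLA-266 the shares were 43.5% and 41.1%. Its log2 fold change of -0.22 ± 0.18 did not pass the test (adjusted *p* = 0.343, edgeR). *FZD10* had no count in either untreated library, and 112 counts in treated BT-16 and 10 in treated CHLA-266 cells. With the counts of both lines summed, and against a floor of 3 counts per library, it was at least 24.2-fold higher (adjusted *p* = 0.0141, edgeR). This bound does not hold for each line alone. It stood above the olfactory level in BT-16 only, at 0.590 CPM per kb, compared with 0.0586 in CHLA-266. Without the treated BT-16 library the adjusted *p* was 0.256, and with limma on VST values it was 0.0534, the highest of the alternatives with all 4 libraries (lowest 0.000248).

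The other receptors included *FZD3*, *FZD4*, and *FZD7*, whose calls turned on the model. *FZD3* went from 18932 to 9485 (BT-16) and from 5740 to 3527 counts (CHLA-266), so the groups overlapped, and its log2 fold change was -0.67 ± 0.50. With the cell line as a block it was called lower (-0.60, adjusted *p* = 0.00145, edgeR). *FZD4* (0.71, 0.0269) and *FZD7* (0.59, 0.0241) did not pass the test and were called higher in the blocked fit. *FZD7* had 2154 and 1904 counts in BT-16 before and after treatment and 872 and 1598 in CHLA-266. *FZD6* and *FZD9* had at most 182 counts in any library.

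**Figure D2:**
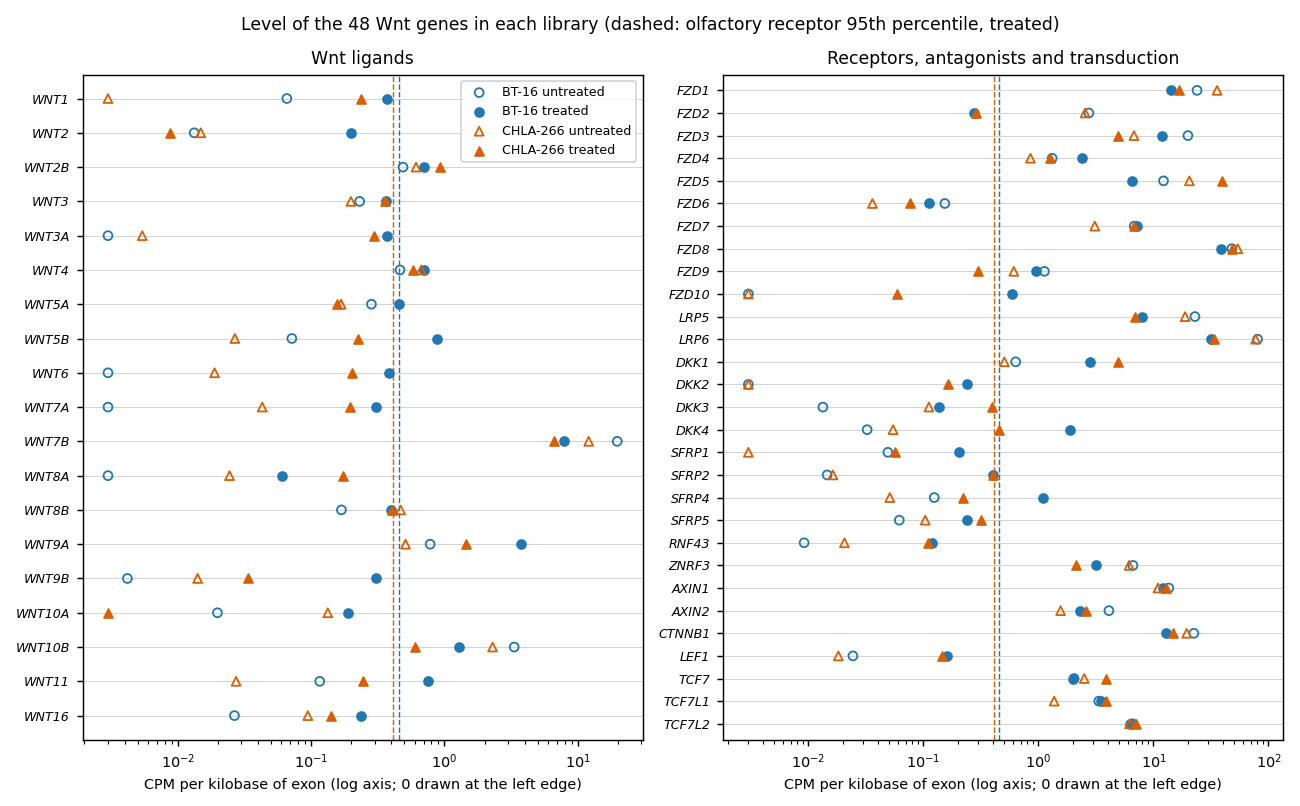
Level of each Wnt gene in each of the 4 libraries, in CPM per kb of exon on a log axis, with genes grouped by role. Dashed lines mark the olfactory level of the treated libraries and a level of 0 is drawn at the left edge. In both treated libraries 22 of the 48 genes were above their olfactory level, and *FZD8*, *LRP6*, and in CHLA-266 *FZD5* stood at the upper end.

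The ligands were led by 1 gene. *WNT7B* (ENSG00000188064; chr22:45920366-45977162, minus strand), a ligand known from vascular growth in the brain, went from 6928 to 2303 (BT-16) and from 3779 to 1765 counts (CHLA-266). It fell by 1.13 on the log2 scale (SE 0.24; adjusted *p* = 0.00778, edgeR). The call held without any 1 library, and the fold change was smallest without the untreated BT-16 library, at -0.73. *WNT10B* went from 599 to 194 (BT-16) and from 368 to 81 counts (CHLA-266). Its log2 fold change was -1.57 ± 0.46, with an adjusted *p* of 0.0288 in edgeR, and both treated libraries were below the untreated ones. The call was lost without the untreated BT-16 library (0.111) or the treated CHLA-266 library (0.0827), and with library totals (0.0636), upper-quartile scaling (0.0729), or a minimum of 10 counts in every library (0.0562). Over all alternatives with the 4 libraries, the adjusted *p* lay between 0.000652 and 0.0729.

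*WNT9A*, on chr1:227918656-227947932, was the ligand that rose from a level already above the olfactory one in both lines. It went from 216 to 867 (BT-16) and from 126 to 301 counts (CHLA-266). The log2 fold change was 2.0 ± 0.49 (adjusted *p* = 0.0143, edgeR). Without the treated BT-16 library it was 1.16, with an adjusted *p* of 0.0933, and without the untreated CHLA-266 library 1.73, with 0.0552. With all 4 libraries the adjusted *p* of the alternatives lay between 3.28e-05 and 0.0336.

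The make-up of the ligand RNA also differed between the conditions. In BT-16, *WNT7B* accounted for 76.5% of the summed ligand level per kb before and 40.1% after treatment, and in CHLA-266 for 69.4% and 51.8%. *WNT10B* ranked second before treatment in both lines, with 12.9% and 13.2%, and *WNT9A* ranked second after it, with 19.1% and 11.2%. Summed over the 19 ligands, the level went from 25.9 to 19.6 CPM per kb (BT-16) and from 17.4 to 12.9 (CHLA-266). These shares have no test, since each is 1 value per library.

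**Figure D3:**
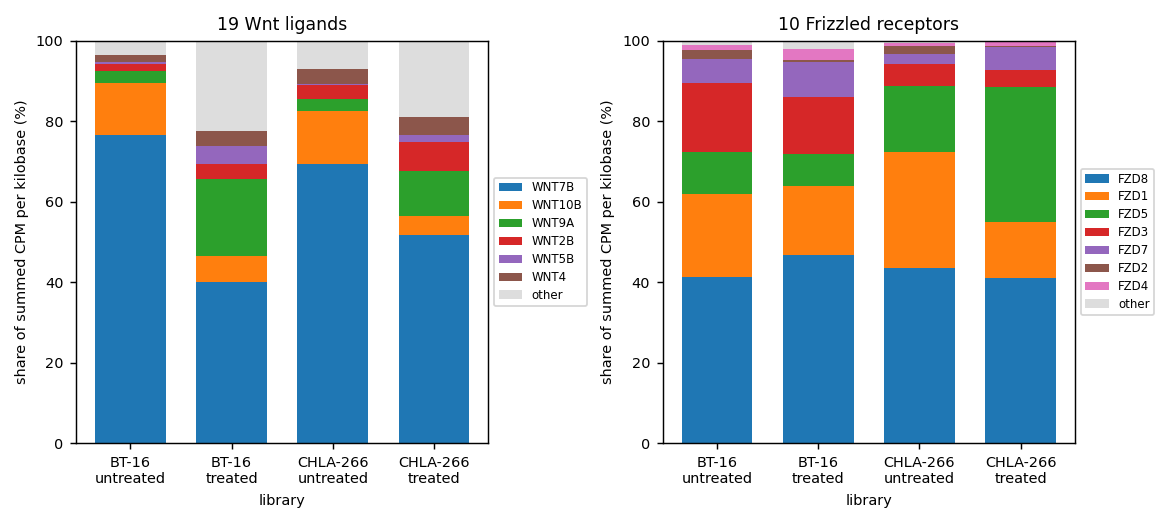
Share of each Wnt ligand (left) and each Frizzled receptor (right) in the summed CPM per kb of its family, in percent, as 1 stacked bar for each of the 4 libraries. *WNT7B* took 76.5% and 69.4% of the ligand level in the untreated libraries and 40.1% and 51.8% in the treated ones, and *FZD8* led the receptors in all 4.

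The other 3 ligands that rose were near the bottom of the range. *WNT5B*, a ligand that mostly acts without β-catenin, went from 21 to 217 (BT-16) and from 7 to 50 counts (CHLA-266). Its log2 fold change was 3.48 ± 0.91 (adjusted *p* = 0.0185, edgeR). It was above the olfactory level in BT-16 before and after treatment, at 0.0718 and 0.885 CPM per kb, and under it in CHLA-266. The adjusted *p* was 0.243 without the treated BT-16 library, where the log2 fold change was 2.19, and 0.0580 without the untreated CHLA-266 library. *WNT3A*, a ligand that signals through β-catenin, had 0 and 1 counts before treatment and 64 and 46 after it. The ratio of summed levels was 131, with an exact interval from 23.0 to 5213 that covers counting error only (adjusted *p* = 0.00883, edgeR). In spite of this ratio its level of 0.369 and 0.295 CPM per kb was under the olfactory level of both treated libraries. *WNT9B* went from 2 to 122 (BT-16) and from 6 to 12 counts (CHLA-266), and its call (adjusted *p* = 0.0401, edgeR) was lost with the cell line as a block (0.0838). It was also lost without the treated BT-16 library (log2 fold change 1.84, adjusted *p* = 0.655), without the untreated BT-16 library (0.111), and without the untreated CHLA-266 library (0.0555). With all 4 libraries its adjusted *p* lay between 0.00843 and 0.107, the highest with limma on VST values.

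The remaining 13 ligands did not pass the test. In 8 of them both treated libraries were above both untreated ones, which held for 40.2% of all genes. *WNT2B*, the one at the highest level of these, had 418 and 506 counts (BT-16) and 467 and 595 counts (CHLA-266) before and after treatment. *WNT3* had 66 and 86 counts before and 101 and 114 after treatment. The other 6 of the 8, *WNT1*, *WNT6*, *WNT7A*, *WNT8A*, *WNT11*, and *WNT16*, had at most 104 counts in any library. The groups overlapped for *WNT4* (140 to 192 counts), *WNT5A* (58 to 190), *WNT8B* (25 to 62), *WNT2* (2 to 50), and *WNT10A* (0 to 32). *WNT7A* had 0 and 12 counts before and 80 and 46 after treatment (adjusted *p* = 0.0815, edgeR), and was called higher with the cell line as a block (0.0398). Over the alternatives with all 4 libraries this value lay between 0.0111 and 0.0829.

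All 8 antagonists had a positive log2 fold change and groups that did not overlap, with a median of 2.83, and 5 passed the test. In 40.2% of all genes the treated libraries were likewise both above the untreated ones, and the median of all genes with under 100 counts before treatment, where all antagonists but *DKK1* belong, was 3.25. DKK1 is a secreted protein that binds LRP5 and LRP6. *DKK1* (ENSG00000107984; chr10:52314281-52318042, plus strand) went from 97 to 363 (BT-16) and from 69 to 569 counts (CHLA-266). The treated libraries were above the untreated ones by a wide margin, and the log2 fold change was 2.77 ± 0.43 (adjusted *p* = 0.00194, edgeR). The call held without any 1 library, with values from 2.32 to 3.11. At 2.83 and 4.93 CPM per kb it was the most abundant antagonist after treatment, as it had been before it at 0.633 and 0.505, and it was above the olfactory level in all 4 libraries.

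*DKK4* had 2 and 3 counts before treatment and 98 and 21 after it, in BT-16 and CHLA-266. The ratio of summed levels was 28.3 (exact interval 11.8 to 88.8, counting error only), with an adjusted *p* of 0.0197 in edgeR. The call was lost without the treated BT-16 library (0.333) or the untreated BT-16 library (0.0573). *DKK4* was above the olfactory level in both treated libraries, at 1.89 and 0.451 CPM per kb. *DKK2* had no count before treatment and 60 and 37 after it. Summed over both lines, this was at least 19.2-fold higher against the floor of 3 counts per library (adjusted *p* = 0.00870, edgeR). Its level of 0.239 and 0.164 CPM per kb was under the olfactory level.

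*SFRP2* had 2 counts in each untreated library and 46 and 42 in the treated ones, a ratio of 26.2 (exact interval 9.86 to 98.1, counting error only). The adjusted *p* was 0.0215 in edgeR, and between 0.0532 and 0.103 without any 1 of the 4 libraries, so that each was needed for the call. *SFRP4* went from 30 to 222 (BT-16) and from 11 to 40 counts (CHLA-266) (log2 fold change 2.90 ± 0.92, adjusted *p* = 0.0383, edgeR). Without the treated BT-16 library its log2 fold change was 1.32 and its adjusted *p* 0.511, and without the untreated CHLA-266 library the adjusted *p* was 0.114. The alternatives with all 4 libraries gave it 0.00898 to 0.0848, and the highest, from limma on VST values, ended the call. *SFRP2* was under the olfactory level in both treated libraries and *SFRP4* was above it in BT-16 only. *DKK3*, with 11 and 95 counts (BT-16) and 82 and 244 counts (CHLA-266), did not pass the test and was called higher with the cell line as a block (2.51, adjusted *p* = 0.00315, edgeR). *SFRP1* and *SFRP5* had at most 56 counts and did not pass the test. The summed antagonist level was 0.928 and 0.841 CPM per kb before and 7.03 and 6.94 after treatment. The olfactory receptor genes moved in the same direction, with a summed level of 7.10 to 8.37 CPM before and 68.8 to 94.1 CPM after treatment, 27 of 336 called higher, none lower, and a median log2 fold change of 4.16. Their part in the antagonist sum was not tested.

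Among the effector and the genes of receptor turnover, *CTNNB1* and *ZNRF3* fell, and *RNF43* did not pass the test. *CTNNB1* (ENSG00000168036; chr3:41194741-41260096, plus strand) went from 18184 to 8805 (BT-16) and from 14076 to 9014 counts (CHLA-266). It fell by 0.60 on the log2 scale (SE 0.17; adjusted *p* = 0.0250, edgeR). The call was lost with library totals (-0.37, 0.0867), upper-quartile scaling (-0.25, 0.230), and a minimum of 10 counts in every library (0.0659), and without the untreated (0.136) or the treated (0.0741) BT-16 library. Over the alternatives with all 4 libraries the adjusted *p* lay between 0.00182 and 0.230. *ZNRF3* went from 3198 to 1290 (BT-16) and from 2641 to 776 counts (CHLA-266), and its log2 fold change was -1.26 ± 0.23 (adjusted *p* = 0.00395, edgeR). It held its call without any 1 library. *RNF43*, the related ubiquitin ligase, had 4 and 8 counts before and 43 and 36 after treatment, and did not pass the test (adjusted *p* = 0.0826, edgeR).

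The scaffold genes and transcription factors did not pass the test. *AXIN1* had 7067 and 5242 counts (BT-16) and 5080 and 5008 counts (CHLA-266), before and after treatment (log2 fold change 0.02 ± 0.17). *AXIN2*, itself a target of the pathway in many cells, had 1468 and 694 counts (BT-16) and 498 and 704 counts (CHLA-266), so the untreated library was the higher in 1 line and the lower in the other. *TCF7* had 1420 and 1173 counts (BT-16) and 1553 and 2016 counts (CHLA-266), with overlapping groups. *TCF7L2* ranged from 2426 to 3049 counts with a log2 fold change of 0.06 ± 0.17. *TCF7L1* had 1022 and 893 counts (BT-16) and 373 and 896 counts (CHLA-266), and was called higher with the cell line as a block (0.78, adjusted *p* = 0.0247, edgeR). *LEF1* had 9 and 6 counts before and 50 and 40 after treatment (adjusted *p* = 0.0667, edgeR), and stayed under the olfactory level in both treated libraries.

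Each of the 10 called genes with 100 or more counts before treatment moved in the same direction in both lines. This adds nothing to the calls, since both treated libraries of each gene lay beyond both untreated ones. For *LRP5* the treated and untreated libraries gave a log2 ratio of -1.52 (BT-16) and -1.46 (CHLA-266). The ratios were -1.36 and -1.20 for *LRP6*, -3.31 and -3.15 for *FZD2*, -1.33 and -0.85 for *WNT7B*, and 2.15 and 3.28 for *DKK1*. These ratios have 0.5 counts added and rest on 1 library each, and the difference between the lines could not be tested. Between the lines, 1 of the 48 genes was higher and 1 lower in BT-16, with condition in the model, compared with 1.46% and 0.836% of all genes. *FZD3* was higher in BT-16 (log2 difference 1.42 ± 0.15, adjusted *p* = 1.73e-07, edgeR). *FZD5* stood lower there (-1.67 ± 0.24, adjusted *p* = 3.29e-05, edgeR), with 5932 and 2655 counts (BT-16) and 8892 and 14460 counts (CHLA-266) before and after treatment. DESeq2 did not call *FZD5* between the lines (adjusted *p* = 0.476), and neither did edgeR with a minimum of 10 counts in every library (0.0570).

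**Figure D4:**
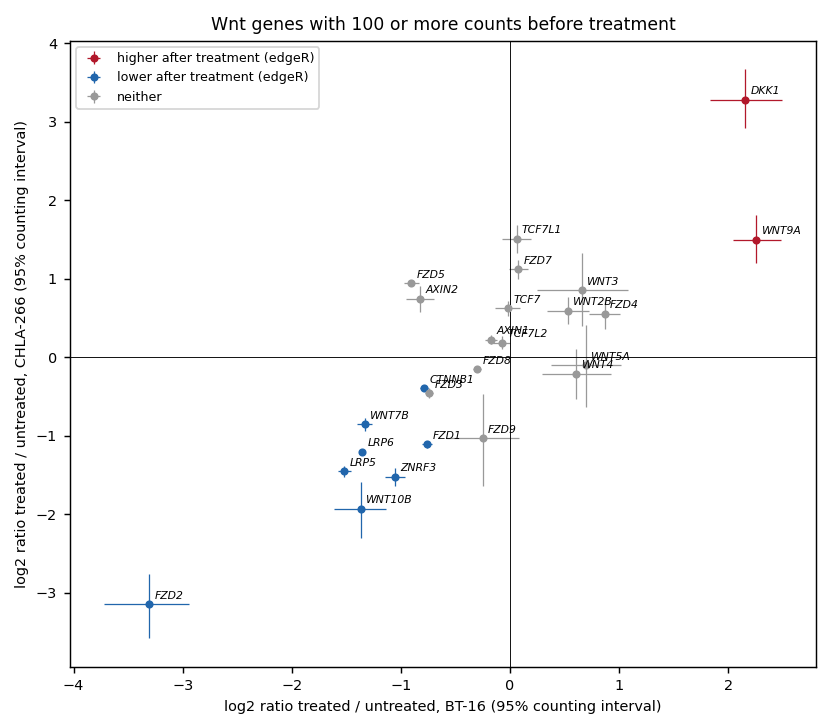
Log2 ratio of treated to untreated within BT-16 (x axis) and within CHLA-266 (y axis) for the 25 Wnt genes with 100 or more counts over both untreated libraries, 1 library per line and condition, with bars for the exact 95% interval of counting error. *LRP5*, *LRP6*, and *FZD2* had nearly equal ratios below 0 in both lines, and *FZD5* and *AXIN2* lie below 0 in BT-16 and above it in CHLA-266.

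The rest of the pathway was read from 5 lists of 74 genes, of which 9 rose and 14 fell. Neither share was above that of all genes tested, where 16.1% were called higher and 19.1% lower. A difference of any list from all genes was not tested. Of 22 extracellular modulators and other receptors, 4 rose and 3 fell. *SOST*, the gene of the LRP5 and LRP6 antagonist sclerostin, went from 44 to 1179 (BT-16) and from 28 to 546 counts (CHLA-266), and rose by 4.81 ± 0.45 on the log2 scale (adjusted *p* = 0.000151, edgeR). *WLS*, which carries Wnt ligands to the cell surface, rose from 3172 to 8075 and from 932 to 7098 counts (2.17 ± 0.42, adjusted *p* = 0.00546, edgeR). *PTK7*, a co-receptor without kinase activity, fell from 8771 to 2679 and from 6426 to 3128 counts (-1.12 ± 0.19, adjusted *p* = 0.00301, edgeR). All 3 calls held without any 1 library. *RSPO1* and *RSPO4*, agonists that act through receptor turnover, rose at 39 to 78 counts after treatment and stayed under the olfactory level, and *RSPO1* lost its call with the cell line as a block (adjusted *p* = 0.0532, edgeR), where *ROR2* was called higher (0.0166). *ROR1* and *NOTUM* fell, and each lost its call when a library was left out.

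Of 12 planar cell polarity genes, which act in the β-catenin independent branch, 5 fell and 1 rose. Of all genes, 19.1% were called lower and 16.1% higher. All 5 that fell had 100 or more counts over both untreated libraries, where 29.7% of all genes were called lower. *VANGL1* went from 2488 to 516 (BT-16) and from 2428 to 392 counts (CHLA-266) (-2.20 ± 0.21, adjusted *p* = 0.000170, edgeR). *CELSR2* (-1.95 ± 0.31) and *SCRIB* (-0.99 ± 0.16) fell as well, and *DAAM1*, which links Wnt signals to actin, rose by 1.18 ± 0.21. Of 14 nuclear cofactors, 3 fell and 1 rose. *PYGO1* (-1.35 ± 0.24), *CTBP1* (-0.79 ± 0.16), and *PYGO2* fell, the last without its call in at least 1 fit with a library left out. The co-repressor *TLE4* went from 13 to 228 (BT-16) and from 8 to 126 counts (CHLA-266) (4.30 ± 0.67, adjusted *p* = 0.00196, edgeR). After treatment *TLE4* was above the olfactory level in BT-16 only, at 0.4765 CPM per kb, compared with 0.293 in CHLA-266. Of 18 genes of cytoplasmic transduction, *BTRC*, part of the ubiquitin ligase that marks β-catenin, rose (0.57 ± 0.16), *DVL1*, which relays the receptor signal, fell (-0.53 ± 0.17), and 16 did not pass the test. Both calls were lost in fits with 1 library left out. With the cell line as a block, *DVL2* (adjusted *p* = 0.0276, edgeR) and *DVL3* (0.0197) were called lower as well, and *TNKS2* (0.0297), a tankyrase that acts on AXIN, higher.

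Of 12 target genes, 2 rose and 3 fell, compared with 16.1% and 19.1% of all genes. *SOX9*, a transcription factor of neural and cartilage precursors, went from 6 to 520 (BT-16) and from 6 to 508 counts (CHLA-266), a rise of 6.64 ± 0.48 on the log2 scale (adjusted *p* = 2.7e-05, edgeR). *CCND1* rose by 1.12 ± 0.23 (adjusted *p* = 0.00698, edgeR) and *MYC* fell by 0.59 on the log2 scale (SE 0.17; adjusted *p* = 0.0289, edgeR), the latter losing its call in at least 1 fit with a library left out (highest adjusted *p* 0.127). *TNFRSF19* fell with 9999 counts in the untreated CHLA-266 library and 709 to 1019 in the other 3, and its adjusted *p* reached 0.766 with 1 library left out (edgeR). Markers of cells that a culture should not hold were few: 9 leukocyte genes summed to 3.51 to 6.57 CPM before and 7.45 to 11.3 after treatment, 3 of them rose, and *CD68* was at 0 in both treated libraries. For 6 endothelial genes the sum was 1.20 to 2.04 CPM before and 8.51 to 11.5 after treatment, and 3 rose. Their part in the Wnt values was not tested.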

How the data were processed

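Bulk RNA libraries (stranded SMART-Seq kit) of untreated and treated BT-16 and CHLA-266 cells were used, 1 per line and condition. The estimated counts per gene symbol were deposited by the authors without normalization, with genes of the sex chromosomes and repeatedly counted genes removed, and 5 values that were not whole were rounded here. Deposited log2 values came from the variance-stabilizing transformation (VST) of DESeq2. The submitters' processing notes name bcl2fastq 2.20, STAR, and hg38, and how read pairs were counted is not given in the sources used here.

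After removal of 383 symbols with a total of 0, edgeR 4.0.16 in R 4.3.3 was run on 18066 genes with TMM scaling, its quasi-likelihood test, and Benjamini-Hochberg adjustment (threshold 0.05). Condition was the only term. With 1 library per line, *p* values measure the spread between 2 cell lines. The lines were compared with condition in the model. Libraries are paired by their cell line, and the deviations of paired libraries correlated at 0.157 over 15963 genes. Standard errors were derived from the test statistic, and levels are TMM-scaled CPM per kb of exon (GENCODE 44). Exact 95% intervals hold counting error alone, and most low counts were even, so they may be too narrow. Alternatives comprised a block for cell line, DESeq2 1.42.0, limma 3.58.1 on VST values, other scalings and filters, halved counts, and leaving out each library. The edgeR step was tested on simulated data.

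Members, lists, and tests were chosen with earlier results of these data known. All members are named or counted, and from each other list at most 3 called genes with the smallest adjusted *p* are given with their values. *DAAM1*, *PYGO2*, *RSPO1*, *RSPO4*, *ROR1*, *NOTUM*, *ROR2*, *DVL2*, *DVL3*, *TNKS2*, *TNFRSF19*, *VIM*, *ACTA2*, *MUC1*, *SMARCB1*, and *CD68* were added after their values were seen.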

Additional observations from a re-analysis of the deposited data

Results flagged for a closer look

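The log2 ratio of treated to untreated had opposite signs in the 2 lines in 11 of the 48 genes. The share among all genes is not given, so whether 11 is many cannot be said. In 4 of the 11 genes the 95% counting interval, taken with halved counts, left out 0 in both lines, and these are given here. The difference between the lines was not tested, since each line has 1 library per condition. For *WNT10A* the ratio was 3.11 in BT-16, where it went from 4 to 32 counts, and -5.37 in CHLA-266, where it went from 24 to 0 counts. *WNT10A* was under the olfactory level in both treated libraries. *FZD5*, the receptor with the third or second highest level in CHLA-266, had ratios of -0.90 and 0.95. *AXIN2* had ratios of -0.82 and 0.74. *AXIN1* had ratios of -0.18 and 0.22, and the sign in BT-16 was the opposite with library totals (0.11) and with upper-quartile scaling (0.22).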

How the results depend on the processing

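No fold change of the 18 genes called after treatment changed sign in any alternative: 214 values kept their side of the threshold and 31 did not. The number of genes called higher was 16 with DESeq2 and the cell line as a replicate block, 3 with a minimum of 10 counts in every library, where 28 of the 48 genes were tested, and 6 to 12 with 1 library left out, the fewest without treated BT-16. With edgeR and the replicate block, 14 were higher and 9 lower, and all calls but that of *WNT9B* were kept. The number called lower was 6 to 9 in every alternative. The median log2 fold change of 0.70 was 0.80 with DESeq2 and the block, 1.05 with upper-quartile scaling, 0.93 with library totals, 0.30 with the minimum of 10 counts, 0.33 with limma on VST values, and 0.75 to 1.13 with 1 library left out. Between the lines, 0 genes were higher and 0 lower in BT-16 without condition in the model (edgeR), 2 and 3 with DESeq2 size factors, 2 and 2 with upper-quartile scaling, and 5 and 2 with library totals, and 0 were lower with DESeq2 or the minimum of 10 counts. The log2 ratio of *FZD8* changed sign with upper-quartile scaling (0.094 in BT-16, 0.15 in CHLA-266) and with library totals (0.014 in CHLA-266), and that of *AXIN1* in BT-16 with library totals (0.11) and upper-quartile scaling (0.22). The cause of these changes was not tested. Leaving out a library in the comparison of the lines was not run. Depth limits the 7 genes with at most 3 counts in both untreated libraries to bounds or wide ratios.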
